A study of Mus musculus with 12 samples.

Results

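The 57 genes described here encode proteins that carry a cell through mitosis: condensins, cyclins and mitotic kinases, the spindle checkpoint, the chromosomal passenger complex, the kinetochore, mitotic kinesins, spindle assembly factors and the cytokinesis machinery, with 2 transcription factors that drive them. They were taken by symbol from a list of genes with known roles in mitosis. The rule uses no measured value, but the list was drawn up with earlier results of these data known. All 57 were among the 17365 genes of the count table, and all 57 were among the 13312 genes with enough counts to be tested.

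RNA was sequenced in bulk from 12 libraries of mouse neural stem cells (NSCs), cells of the adult subventricular zone that can renew themselves and give rise to neurons and glia. The cells came from wild-type mice of 6 to 8 weeks and were grown without serum, with N2, B27 and laminin, below passage 10. Each of 3 conditions lasted 3 days: EGF/FGF (EGF and FGF2 at 10 ng/ml each), in which NSCs proliferate, BMP (BMP4 at 10 ng/ml), which the study calls d-qNSCs, and BMP/FGF (BMP4 and FGF2 at 10 ng/ml each), which it calls p-qNSCs. Each condition was measured in 2 replicates of the ANS4 line, from strain MF1, and 2 of the BL6 line, from strain C57BL/6, so n = 4 libraries per condition. Each strain is represented by a single line, and line and strain therefore cannot be told apart. The labels call the replicates biological, without saying whether they were separate cultures, so p-values measure the spread between these libraries.

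Mitosis begins when Cdk1, bound to a B-type cyclin, drives chromosome condensation and spindle assembly. Kinetochores then attach the chromosomes to spindle microtubules, and the spindle checkpoint holds back the anaphase-promoting complex until every chromosome is attached. Most of these genes are transcribed late in the cell cycle, so their RNA is abundant in dividing cultures, and Mki67 and Top2a are widely used to mark proliferating NSCs and their transit-amplifying progeny. In bulk RNA, fewer cells in mitosis and less RNA per cell cannot be told apart.

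Levels are CPM, the counts of a gene relative to the total of its library, scaled by TMM, a correction for differences in library composition, and library values are always listed in the order ANS4 replicate 1, ANS4 replicate 2, BL6 replicate 1, BL6 replicate 2. Changes are log2 fold changes from edgeR's quasi-likelihood test with condition and line as terms, and p-values are adjusted by Benjamini-Hochberg over all 13312 genes. A gene was called lower or higher at an adjusted p (FDR) under 0.05. Library totals lay between 18069052 and 19451818 counts, and the lowest count of any of the 57 genes in any library was 31, for Cdc25c. All 8 NSC markers were detected, and their levels moved in different directions: from EGF/FGF to BMP the mean of Nes went from 569 to 126 CPM and that of Fabp7 from 2410.2 to 476, while Sox9 went from 182 to 744 and Vim from 2693 to 4687. Of the markers of cells that a culture could carry over, 6 of 12 for microglia and 3 of 5 for endothelium were in the table and summed to at most 18.9 and 4.32 CPM. Among the microglia markers, Csf1r, Tmem119 and Cx3cr1 had at most 2, 4 and 10 counts in any library. P2ry12, Cd68 and Itgam had at most 62, 87 and 245. The 6 oligodendrocyte markers lay between 192.2 and 231 CPM summed in EGF/FGF, between 635 and 673 in BMP and between 706 and 729.8 in BMP/FGF, and 9 markers of neuroblasts and young neurons are given with the line differences. The part of these cells in the results was not tested.

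All 57 genes were lower in BMP than in EGF/FGF. The median log2 fold change was -2.49, with a range from -3.25 (Ccnb2 and Hmmr) to -0.83 (Bub3), while the median over all tested genes was 0.019. Of all tested genes, 38.8% were called lower and 40.8% higher. Each line alone, in a fit of 6 groups, also had all 57 lower, against 37.0% of all genes in ANS4 and 37.6% in BL6. A total of 55 of the 57 fell past -1.5 on the log2 scale, against 6.95% of all genes. In each of the 57, all 4 BMP libraries lay below all 4 EGF/FGF libraries, which held for 34.8% of the genes tested. Summed over the 57 genes, the libraries held 8235, 8197, 9916 and 9713 CPM in EGF/FGF, 1436, 1359, 2084 and 1927 CPM in BMP, and 1052, 1069, 989 and 992 CPM in BMP/FGF.

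BMP/FGF libraries were lower still. All 57 genes were lower than in EGF/FGF, with a median of -3.34 and a range from -4.09 (Cdc20) to -0.97 (Bub3), against 38.0% of all genes called lower and 40.9% called higher. Again 55 fell past -1.5, against 6.08% of all genes, and no BMP/FGF library reached any EGF/FGF library for any of the 57, which held for 36.9% of all genes. The median gene kept 17.9% of its EGF/FGF level in BMP and 9.81% in BMP/FGF. Both comparisons share the 4 EGF/FGF libraries.

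**Figure D1:**
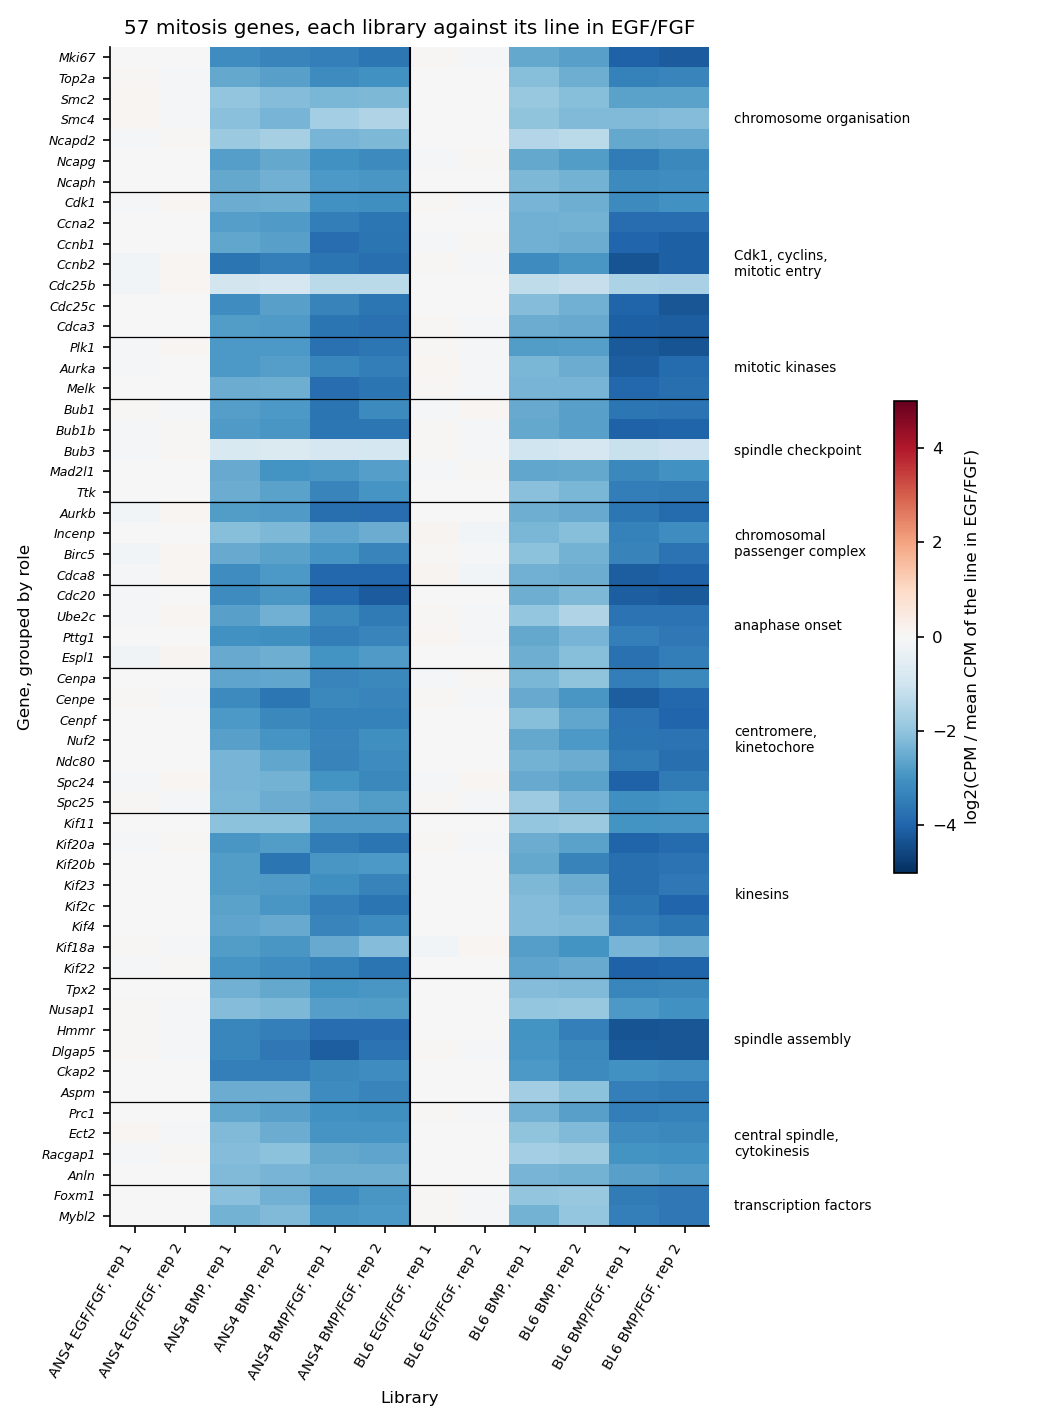
Heatmap of the 57 genes (rows, grouped by role) in 12 libraries (columns). Colour is the log2 ratio of a library's CPM to the mean CPM of the same line in EGF/FGF. The BMP and BMP/FGF columns are blue for all 57 genes, palest for Bub3 and Cdc25b. For most genes the columns darken more from BMP to BMP/FGF in BL6 than in ANS4.

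Most of the genes hold 1 or both of 2 short motifs at their starts. Many promoters of late cell-cycle genes carry a cell cycle genes homology region (CHR), bound by the DREAM complex in resting cells and by MuvB complexes in cycling cells, and CCAAT boxes, which NF-Y binds. A promoter of 250 bases before to 50 bases after the start was found for 47 of the 57 genes in RefSeq, build GRCm38.p6. Bases 11 to 40 after the start lay in a same-strand annotated transcript of the gene for 38 of the 50 member promoters. The starts of the others are less certain. No entry was matched for Smc4, Ccna2, Cdc25c, Aurkb, Incenp, Spc24, Kif20a, Tpx2, Dlgap5 and Foxm1. The letters TTTGAA, on either strand (TTTGAA or TTCAAA), or TTCGAA, which is its own reverse complement, stood in 36 of the 47 promoters (76.6%), compared with 21.7% of 27025 genes with a promoter in the table. CCAAT, on either strand (CCAAT or ATTGG), stood in 34 (72.3%), compared with 41.1% of all genes, and both motifs in 32 (68.1%), compared with 8.61%. Of 123 other mitosis genes with a promoter in the table, 37.4% held the CHR letters, 50.4% CCAAT and 21.1% both. Neither motif was found in 9 of the 47 (19.1%), compared with 46.9% of all genes. Overlapping matches were counted, and a match of letters is a description and not a binding site.

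The upstream stretch of Top2a is shown because it holds 3 CCAAT boxes and a CHR, and that of Kif18a because it was the only gene of the 57 called higher in BMP/FGF than in BMP. They cover the 100 bases before the start on the minus strand at chr11:99024190-99024289 and on the plus strand at chr2:109280638-109280737, outside the annotated exons of either gene. Both motifs are in capitals.
Top2a: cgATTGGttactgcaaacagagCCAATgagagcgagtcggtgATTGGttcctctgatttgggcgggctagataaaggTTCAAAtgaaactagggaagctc
Kif18a: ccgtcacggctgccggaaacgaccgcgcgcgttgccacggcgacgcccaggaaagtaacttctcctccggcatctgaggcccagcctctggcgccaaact
Neither set of letters was found anywhere in the 300-base window of Kif18a. In Top2a, CCAAT or ATTGG appears 3 times and TTCAAA once in the stretch shown.

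The next windows, of 30 bases each, show the CHR letters in capitals for genes whose levels are described below. They lie at chr7:135716460-135716489 (minus strand, upstream of the annotated exons), chr10:69352910-69352939 (minus strand, 29 of 30 bases in non-coding exon sequence), chr7:122159453-122159482 (plus strand, non-coding exon sequence), chr5:30666890-30666919 (plus strand, non-coding exon sequence), chr4:118437344-118437373 (minus strand, 9 bases in an exon), chr2:164769888-164769917 (plus strand, 20 bases in an exon) and chr7:131560315-131560344 (plus strand, non-coding exon sequence), by GENCODE vM21 for the exons.
Mki67: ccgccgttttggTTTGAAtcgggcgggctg
Cdk1: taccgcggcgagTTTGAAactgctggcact
Plk1: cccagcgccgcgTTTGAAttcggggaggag
Cenpa: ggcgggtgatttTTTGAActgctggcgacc
Cdc20: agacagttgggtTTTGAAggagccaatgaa
Ube2c: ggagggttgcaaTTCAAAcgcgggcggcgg
Bub3: gagccgttggcgTTCAAAatcagccaatga
Cdc20, with the lowest share of its EGF/FGF level in BMP/FGF, and Bub3, with the highest, both hold the letters. Among the 47 genes, the 36 with a CHR match had a median log2 fold change of -2.47 in BMP against EGF/FGF and the 11 without had -2.55. For BMP/FGF against BMP the medians were -0.88 and -0.71. Among the 10538 other tested genes with a promoter in the table, the 697 with both motifs had a median of -0.12 in BMP against EGF/FGF, and 45.5% of them were called lower, compared with 38.2% of the 5155 with neither. A CCAAT box lay before a CHR match in 31 of the 47 genes. Of 52 CHR matches in all member promoters, alternative starts included, 25 began after the start and 11 within the 50 bases before it.

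Chromosome organisation genes fell together. Mki67, which encodes the Ki-67 protein that coats mitotic chromosomes, stood at 545, 533, 804 and 742 CPM in EGF/FGF, 63.2, 54.6, 129.9 and 118 in BMP and 50.8, 44.1, 46.9 and 43.0 in BMP/FGF. The 3 conditions did not overlap, and in BMP both BL6 libraries stood above both ANS4 libraries. The log2 fold change was -2.88 ± 0.16 (SE) in BMP against EGF/FGF (adjusted p = 9.27e-12, edgeR) and -0.90 ± 0.16 (SE) in BMP/FGF against BMP (adjusted p = 1.98e-04, edgeR). Top2a, the topoisomerase that untangles sister chromatids, was the most abundant of the 57 per length in EGF/FGF, at 166 CPM per kb of its longest coding transcript. It stood at 839, 788, 905 and 929 CPM in EGF/FGF, 139, 124, 207 and 169 in BMP and 91.9, 99.2, 88.1 and 92.2 in BMP/FGF, again without overlap. It was 5.45-fold lower in BMP than in EGF/FGF and 1.70-fold lower in BMP/FGF than in BMP. The condensin I subunits Ncapd2, Ncapg and Ncaph and the core condensin ATPases Smc2 and Smc4 had log2 fold changes between -2.66 (Ncapg) and -1.56 (Ncapd2) in BMP. Ncapd2 was among the 3 genes that changed least, with 165, 179, 194 and 195 CPM in EGF/FGF, 47.5, 54.6, 71.2 and 76.6 in BMP and 34.8, 36.3, 33.2 and 33.7 in BMP/FGF. Even so, its conditions did not overlap and its BMP mean was 34.1% of the EGF/FGF mean.

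Cdk1, the kinase that starts mitosis, stood at 149, 171, 175 and 166 CPM in EGF/FGF, 28.7, 29.6, 34.3 and 31.1 in BMP and 19.6, 19.2, 18.9 and 20.8 in BMP/FGF. Its libraries were tight within each condition, and its fall of -2.42 ± 0.07 (SE) in BMP and its further change of -0.65 ± 0.07 (SE) in BMP/FGF both passed the test. The cyclins that bind it were lower in every comparison too. Ccnb1 stood at 218, 212, 238 and 254 CPM in EGF/FGF, 35.2, 33.0, 46.4 and 43.5 in BMP and 15.4, 17.4, 15.8 and 14.5 in BMP/FGF, a difference from BMP to BMP/FGF of -1.32 ± 0.09 (SE) (adjusted p = 7.06e-09, edgeR). Other annotated genes, among them the pseudogene Ccnb1-ps, hold 46.9% of the 31-base stretches of the Ccnb1 transcript, so its level is uncertain where reads were split between them. Ccnb2 and Hmmr had the largest falls in BMP, and Ccnb2 stood at 41.2, 48.7, 55.7 and 50.1 CPM in EGF/FGF, 3.53, 4.21, 5.91 and 7.04 in BMP and 3.56, 3.34, 2.63 and 3.13 in BMP/FGF. Its ANS4 libraries overlapped between BMP and BMP/FGF, and its BL6 libraries did not. Ccna2, the S and G2 cyclin, had log2 fold changes of -2.58 in BMP and -3.66 in BMP/FGF against EGF/FGF.

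The CDC25 phosphatases activate Cdk1. Cdc25b stood at 46.9, 54.9, 54.0 and 51.3 CPM in EGF/FGF, 26.7, 28.1, 22.0 and 23.6 in BMP and 20.2, 20.1, 17.5 and 17.0 in BMP/FGF. It kept 48.5% of its EGF/FGF level in BMP and 36.1% in BMP/FGF, in both the highest share of the 57 after Bub3. Cdc25c, at 31.1, 30.2, 34.0 and 33.2 CPM in EGF/FGF, kept 17.3% and 7.32%. Cdc25b overlaps Spef1 on the opposite strand, and Spef1 rose in BMP, by 1.03 on the log2 scale. Cdca3, which helps degrade the Cdk1 inhibitor Wee1, had -2.65 and -3.88.

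The mitotic kinases kept little of their RNA. Plk1, which drives centrosome maturation and mitotic entry, stood at 156, 176, 228 and 205 CPM in EGF/FGF, 22.7, 22.5, 31.3 and 32.5 in BMP and 12.5, 13.4, 11.7 and 10.8 in BMP/FGF. Its conditions did not overlap, and its mean fell to 14.2% of the EGF/FGF mean in BMP and to 6.33% in BMP/FGF. Aurka, the spindle pole kinase, had log2 fold changes of -2.57 and -3.64 against EGF/FGF. Melk stood at 44.9, 45.1, 52.5 and 47.4 CPM in EGF/FGF, 8.06, 8.19, 10.0 and 9.85 in BMP and 3.18, 3.61, 3.30 and 3.69 in BMP/FGF. Its change from BMP to BMP/FGF, -1.39 ± 0.10 (SE), was among the 3 most negative.

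Of the spindle checkpoint genes, Bub1, Bub1b, Mad2l1 and Ttk had log2 fold changes between -2.74 and -2.35 in BMP, whereas Bub3 changed least of the 57. Bub3, the WD-repeat partner of Bub1 and BubR1, stood at 110.1, 119, 128 and 121 CPM in EGF/FGF, 67.3, 69.0, 62.9 and 69.3 in BMP and 63.4, 61.5, 57.7 and 61.2 in BMP/FGF. Its fall of -0.83 ± 0.06 (SE) in BMP passed the test (adjusted p = 7.46e-10, edgeR), while BMP and BMP/FGF overlapped and differed by -0.14 ± 0.06 (SE), which did not (adjusted p = 0.0862, edgeR). Per length, Bub3 moved from 35.1 CPM per kb in EGF/FGF, near the median gene (39.0), to the highest of the 57 in BMP/FGF (17.9). Mad2l1, the Mad2 protein, was lower in BMP/FGF than in BMP (-0.31 ± 0.11 (SE), adjusted p = 0.0274, edgeR), but the call held in 16 of 23 alternatives. It was lost without ANS4 BMP replicate 1 (-0.27), BL6 BMP replicate 1 (-0.29) or 2 (-0.27), or BL6 BMP/FGF replicate 1 (-0.24) or 2 (-0.31), in a fit of the 8 libraries compared (-0.31) and in ANS4 alone (-0.09).

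**Figure D2:**
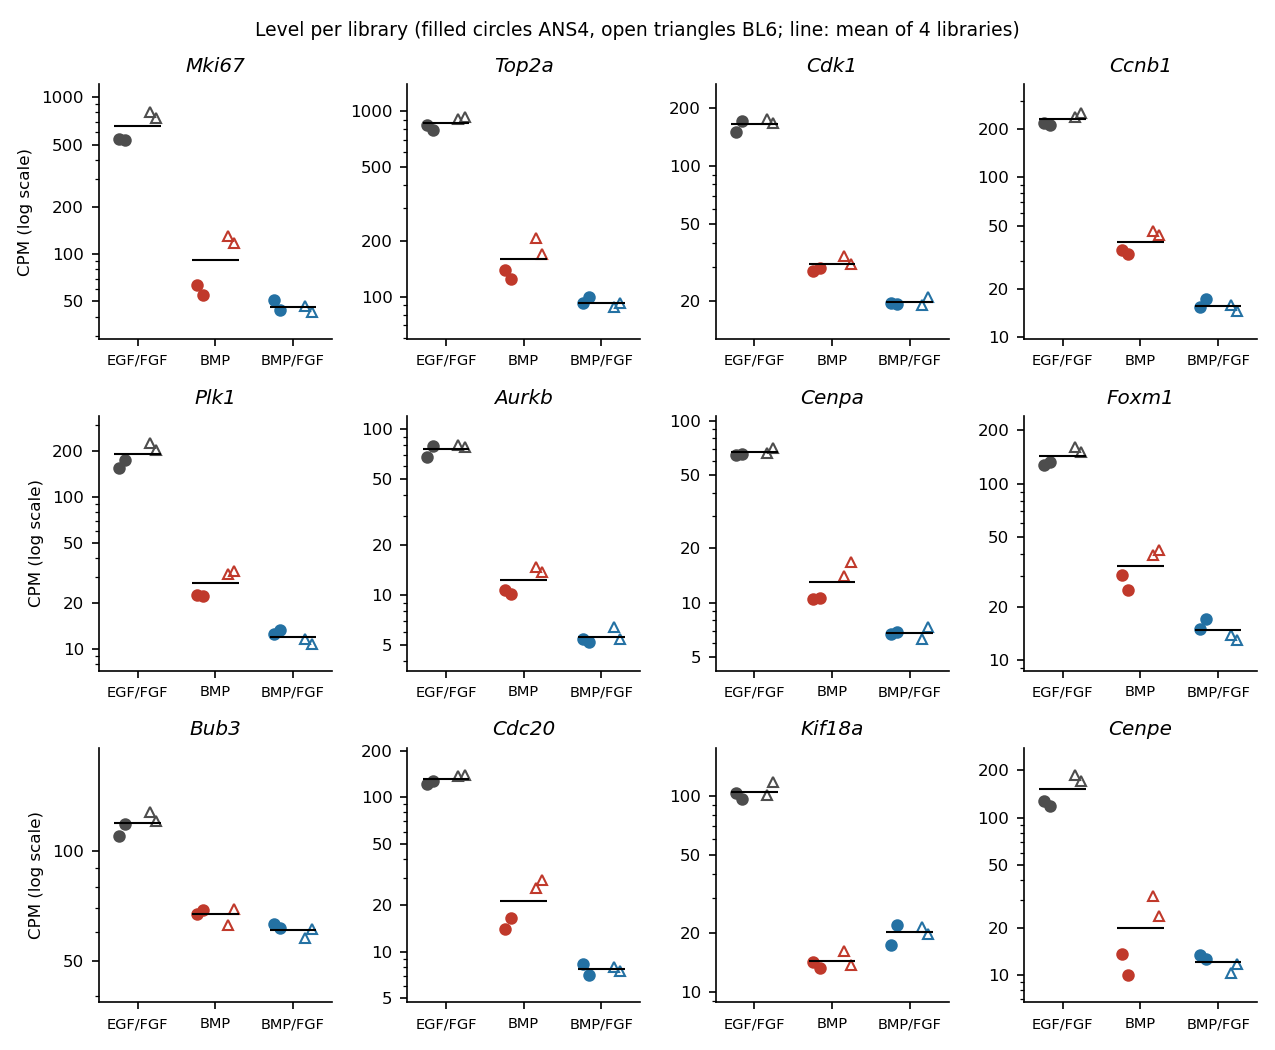
CPM in each library on a log axis for 12 of the genes, by condition. Filled circles are ANS4 and open triangles BL6, and each line is the mean of 4 libraries. EGF/FGF stands apart for all 12 genes, and Bub3 keeps the largest share. The BL6 triangles in BMP sit above the ANS4 circles for all genes shown but Bub3 and Kif18a.

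The chromosomal passenger complex corrects attachments at the kinetochore, and its 4 genes were all lower in both BMP conditions. Aurkb, its kinase, stood at 67.5, 79.1, 80.0 and 78.0 CPM in EGF/FGF, 10.7, 10.2, 14.7 and 13.8 in BMP and 5.44, 5.23, 6.37 and 5.42 in BMP/FGF. No condition overlapped another, and the mean fell to 16.2% and 7.37% of EGF/FGF. Cdca8 (borealin), Birc5 (survivin) and Incenp had log2 fold changes of -2.69, -2.38 and -2.20 in BMP, and of -4.01, -3.31 and -2.89 in BMP/FGF against EGF/FGF. All 4 were also lower in BMP/FGF than in BMP.

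Genes of anaphase onset had a median of -1.15 from BMP to BMP/FGF over 4 genes, compared with -0.87 over the 57, and held the 2 most negative changes. Cdc20, the activator of the anaphase-promoting complex, stood at 121, 128, 138 and 140.3 CPM in EGF/FGF, 14.0, 16.5, 25.9 and 29.2 in BMP and 8.41, 7.06, 7.94 and 7.54 in BMP/FGF. Its BMP/FGF level was the lowest share of all, 5.87% of EGF/FGF, and the change from BMP was -1.44 ± 0.14 (SE) (adjusted p = 5.61e-07, edgeR). Ube2c, the ubiquitin-conjugating enzyme that works with the same complex, stood at 84.6, 95.2, 92.5 and 87.1 CPM in EGF/FGF, 13.6, 17.2, 23.2 and 31.5 in BMP and 9.65, 7.76, 6.99 and 6.87 in BMP/FGF. The 3 conditions did not overlap, although the 4 BMP libraries spanned more than 2-fold, and the change from BMP to BMP/FGF was -1.43 ± 0.19 (SE). Pttg1 (securin) and Espl1 (separase), the inhibitor and the protease that cuts cohesin, had -0.71 and -0.87. Cdc20 shares 27.4% of its 31-base stretches with other annotated transcripts and overlaps Elovl1, which fell by 0.62 in BMP and rose by 0.22 from BMP to BMP/FGF, on the opposite strand.

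At the centromere and kinetochore all 7 genes were lower in each comparison. Cenpa, the histone H3 variant that marks centromeres, stood at 64.7, 65.7, 66.4 and 70.6 CPM in EGF/FGF, 10.5, 10.6, 14.0 and 16.8 in BMP and 6.68, 6.90, 6.31 and 7.32 in BMP/FGF, with no overlap. Its log2 fold change was -2.37 ± 0.10 (SE) in BMP and -3.30 ± 0.11 (SE) in BMP/FGF against EGF/FGF. Cenpe, the kinetochore motor that brings chromosomes to the spindle equator, stood at 128, 118, 186 and 172 CPM in EGF/FGF, 13.6, 10.0, 31.6 and 23.7 in BMP and 13.3, 12.6, 10.3 and 11.7 in BMP/FGF. The range of the 4 BMP libraries took in all 4 BMP/FGF libraries, and the difference between BMP and BMP/FGF, -0.64 ± 0.20 (SE), had an adjusted p of 0.0175 (edgeR). The call held in 18 of 23 alternatives, and was lost without BL6 BMP replicate 1 (-0.42), BL6 BMP/FGF replicate 1 (-0.47) or replicate 2 (-0.52), with DESeq2's Wald test (-0.61) and in ANS4 alone (0.13). In BMP, Cenpf had a log2 fold change of -2.65, and the subunits of the Ndc80 complex, which grips microtubules, had -2.75 (Nuf2), -2.48 (Spc24), -2.44 (Ndc80) and -2.20 (Spc25).

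Of 8 kinesins, motor proteins that move along or take apart microtubules, all were lower in both BMP conditions than in EGF/FGF, and 6 were lower in BMP/FGF than in BMP. Kif11, the motor that pushes spindle poles apart, fell least in BMP (-1.97) and Kif20b most (-3.00). Kif18a, which dampens chromosome movements, stood at 103, 95.8, 100.3 and 117 CPM in EGF/FGF, 14.2, 13.2, 16.1 and 13.6 in BMP and 17.2, 21.8, 21.5 and 19.7 in BMP/FGF. All 4 BMP/FGF libraries lay above all 4 BMP libraries, with a log2 fold change of 0.49 ± 0.09 (SE) (adjusted p = 3.28e-04, edgeR), and it was 0.51 in ANS4 and 0.47 in BL6. Exons of Mettl15 overlap Kif18a on the opposite strand, and Mettl15 moved the same way: its mean was 23.6 CPM in EGF/FGF, 15.0 in BMP and 20.1 in BMP/FGF, a log2 fold change of 0.42 between the last 2. The sources used here do not say whether the libraries kept strand, so reads from the overlapping stretches of the 2 genes may not be told apart. Kif20b differed by -0.28 ± 0.21 (SE) between BMP/FGF and BMP (adjusted p = 0.291, edgeR). Kif20a, Kif23, Kif2c, Kif4 and Kif22 had log2 fold changes between -2.79 (Kif22) and -2.37 (Kif4) in BMP.

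Spindle assembly factors held 3 of the 4 largest falls in BMP. Hmmr, a microtubule-binding protein of the spindle, stood at 169, 157, 206 and 202 CPM in EGF/FGF, 17.1, 15.1, 25.9 and 19.3 in BMP and 11.7, 11.8, 10.2 and 10.6 in BMP/FGF, that is at 10.6% and 6.03% of its EGF/FGF mean. Dlgap5 (HURP) had -3.22 in BMP and -4.07 in BMP/FGF. Ckap2, which stabilises spindle microtubules, stood at 269.6, 273, 256 and 263 CPM in EGF/FGF, 25.2, 25.1, 35.0 and 28.2 in BMP and 28.9, 31.7, 31.7 and 30.4 in BMP/FGF. Its fall in BMP was -3.23 ± 0.08 (SE), while its BMP and BMP/FGF libraries overlapped, with a difference of 0.12 ± 0.09 (SE) (adjusted p = 0.301, edgeR). Tpx2, Nusap1 and Aspm had -2.31, -2.06 and -2.16 in BMP and -3.08, -2.86 and -3.34 in BMP/FGF.

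Prc1, Ect2, Racgap1 and Anln build the central spindle and the cleavage furrow, and their median of -2.26 in BMP was less negative than the -2.49 over the 57. Racgap1 stood at 221, 234, 265 and 258 CPM in EGF/FGF, 50.4, 54.6, 79.5 and 76.4 in BMP and 38.7, 36.4, 32.9 and 32.5 in BMP/FGF, without overlap, and kept 26.7% in BMP. Anln (anillin) had -2.30 in BMP and a further -0.30 from BMP to BMP/FGF. Among transcription factors, Foxm1, which switches on G2 and M genes, stood at 127, 132, 161 and 150.4 CPM in EGF/FGF, 30.3, 24.9, 39.4 and 42.0 in BMP and 15.0, 17.2, 13.9 and 13.1 in BMP/FGF. The conditions did not overlap, and Foxm1 was 4.20-fold lower in BMP than in EGF/FGF and 2.28-fold lower in BMP/FGF than in BMP. Mybl2 (B-Myb), its partner on the MuvB complex, had -2.21 and -0.97 in the same comparisons.

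**Figure D3:**
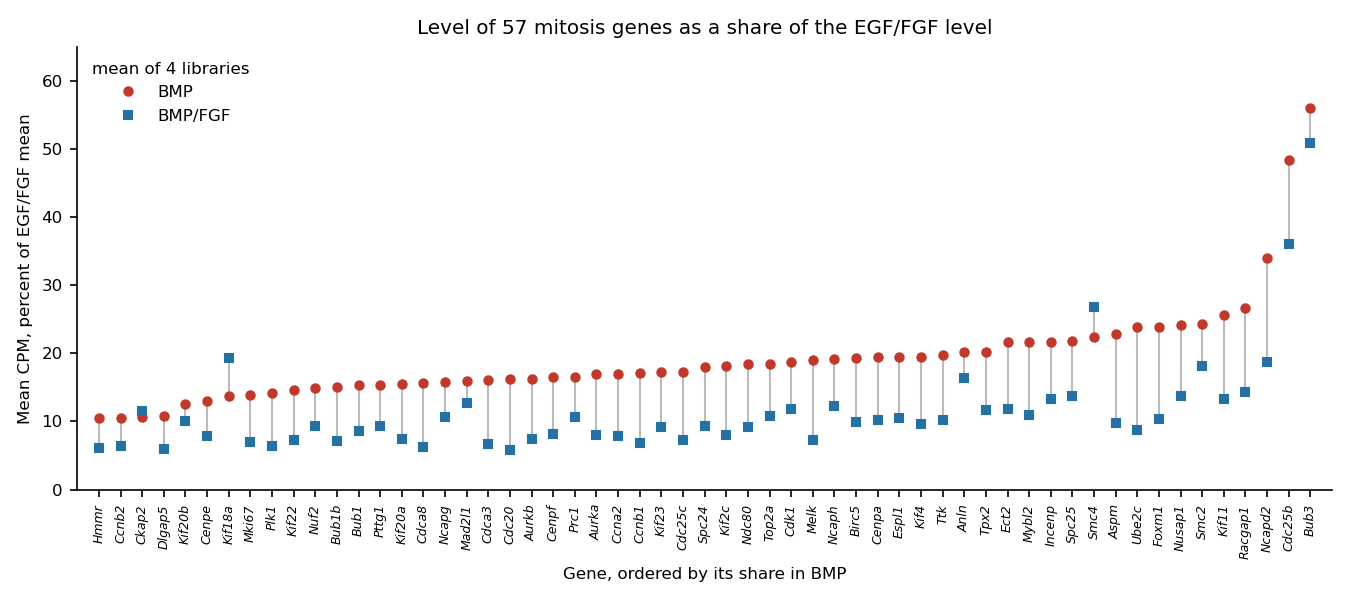
Mean CPM of each gene in BMP (circles) and BMP/FGF (squares) as a percent of its EGF/FGF mean, each a mean of 4 libraries, ordered by the share in BMP. Shares in BMP run from 10.6% to 56.1%, and the square lies above the circle for Ckap2, Kif18a and Smc4.

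The comparison of BMP/FGF with BMP asks how the 2 quiescent cultures differ. Of the 57 genes, 52 were lower in BMP/FGF, against 21.3% of all genes, and 1 was higher, Kif18a, against 20.1% of all genes. The median was -0.87, compared with -0.0035 over all tested genes, and none of the 57 passed 1.5 on the log2 scale in either direction (0.684% of all genes were called past -1.5). For 49 genes every BMP/FGF library lay below every BMP library, which held for 18.0% of all genes, and the other 8 were Smc4, Ccnb2, Bub3, Mad2l1, Cenpe, Kif20b, Kif18a and Ckap2. Smc4, the condensin ATPase, stood at 264, 229.7, 315 and 309 CPM in EGF/FGF, 58.0, 49.3, 76.4 and 66.9 in BMP and 75.0, 87.1, 68.2 and 69.7 in BMP/FGF. In ANS4 both libraries with FGF2 added to BMP4 stood above both with BMP4 alone, and in BL6 they overlapped, and the difference over both lines was 0.28 ± 0.11 (SE) (adjusted p = 0.0573, edgeR). Without BL6 BMP replicate 1, Smc4 and Ckap2 were also called higher in BMP/FGF, Bub3 was called lower, and Cenpe and Mad2l1 were not called. Smc4 was also called higher without BL6 BMP/FGF replicate 1 (0.36) or replicate 2 (0.34).

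The change from BMP to BMP/FGF was more negative in BL6 than in ANS4 for most of the genes. A test of the difference between the lines called 41 of the 57 genes more negative in BL6 and none less negative, against 6.86% and 6.67% of all genes, with a median difference of -0.65. In the same fit, ANS4 alone had 44 genes lower (16.6% of all genes) and 3 higher (15.2% of all genes), Kif18a, Smc4 and Ckap2, with a median of -0.52. BL6 had 53 lower (23.0% of all genes) and 1 higher (21.6% of all genes), with a median of -1.17. Both ANS4 BMP/FGF libraries lay below both BMP libraries for 50 genes and both BL6 libraries for 54, which held for 34.5% and 34.7% of all genes.

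The 3 genes with the lowest p for the line difference were Mki67, Racgap1 and Cenpe. Mki67 changed by -0.31 in ANS4 and -1.46 in BL6, a difference of -1.15 ± 0.12 (SE) (adjusted p = 5.87e-05, edgeR). Racgap1 changed by -0.48 and -1.25, a difference of -0.77 ± 0.10 (SE). Cenpe did not pass the test in ANS4 (0.13) and had -1.32 in BL6, a difference of -1.46 ± 0.21 (SE) (adjusted p = 3.26e-04, edgeR). In Mki67 and Cenpe the lines were apart in both EGF/FGF and BMP, with BL6 higher, and close in BMP/FGF, as the values of the libraries above show. Cdk1, Aurkb, Melk and Kif18a were among the 16 genes for which the line difference was not called, with differences of -0.13, -0.31, -0.25 and -0.04.

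The lines differed in the opposite sense between EGF/FGF and BMP: 17 of the 57 genes fell less in BL6, against 5.39% of all genes, and none fell more, against 3.63%, with a median difference of 0.30. Ube2c (0.83 ± 0.18 (SE)), Cdc20 (0.70 ± 0.13 (SE)) and Cenpe (0.69 ± 0.17 (SE)) had the largest differences. The count changed with the libraries used, while the median difference lay between 0.23 and 0.33 with each library left out. The count lay between 5 and 11 when any library but ANS4 BMP/FGF replicate 2 or either BL6 BMP library was left out. It was 13, 16 and 20 without those 3. For the step from BMP to BMP/FGF, the 41 fell to 26 without ANS4 BMP/FGF replicate 2, to 27 without BL6 BMP/FGF replicate 1 and to 25 without BL6 BMP/FGF replicate 2. Both line differences share the BMP libraries.

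The summed level of markers of neuroblasts and young neurons also differed between these groups. All 9 were in the table (Dcx, Dlx1, Dlx2, Dlx5, Sp8, Tubb3, St8sia2, Gad1 and Gad2), and they summed to 66.4 to 84.8 CPM in EGF/FGF, 613 to 619 in ANS4 BMP, 1132 to 1192 in BL6 BMP, 260.4 to 262 in ANS4 BMP/FGF and 231 to 239 in BL6 BMP/FGF. The sum was highest in BL6 BMP, as was the mean of each marker but Gad2. From EGF/FGF to BMP, Gad2 went from 20.7 to 16.1 CPM in ANS4 and from 34.7 to 26.7 in BL6. The part of these markers in the line difference was not tested.

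**Figure D4:**
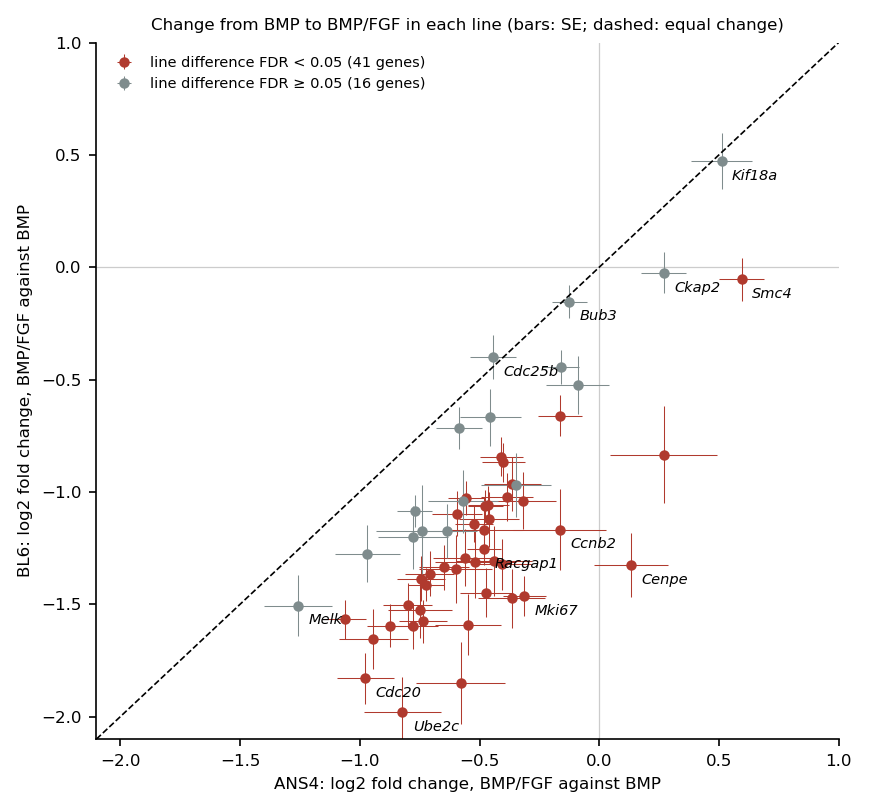
Log2 fold change of BMP/FGF against BMP in ANS4 (horizontal) and BL6 (vertical) for the 57 genes, with bars of 1 SE and a dashed line of equal change. All genes but Cdc25b lie below the line, the 41 red points passed the test of the line difference, and Kif18a is positive in both lines.

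To set the 57 genes beside the rest of the mitotic machinery, 148 other genes of kinetochore, cohesin, condensin II, anaphase-promoting complex, mitotic entry, kinesins, spindle and augmin, centrioles, cytokinesis and DREAM or MuvB were examined. Kif2b was not analysed here, and 146 of the genes were tested. In BMP, 121 (82.9%) were lower and 13 higher than in EGF/FGF, against 38.8% and 40.8% of all genes, with a median of -1.09. In BMP/FGF against BMP, 62 (42.5%) were lower and 14 higher, against 21.3% and 20.1% of all genes, with a median of -0.17. The test of the line difference in the step from BMP to BMP/FGF called 30 (20.5%) more negative and 1 less negative in BL6, against 6.86% and 6.67% of all genes.

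The other genes of the kinetochore had a median in BMP of -2.17 over 20 genes of the outer kinetochore and checkpoint and -1.84 over 20 of the inner kinetochore. Knstrn, the spindle adaptor known as kinastrin, fell most (-3.28 ± 0.10 (SE)), from 189.5 ± 15.6 to 19.5 ± 3.90 CPM (SD, n = 4), followed by Cep55 (-3.14 ± 0.11 (SE)), which brings ESCRT proteins to the midbody. The anaphase-promoting complex had a median of -0.18 over 17 genes, with 11 lower and 3 higher (Anapc16, Anapc13 and Anapc2), and cohesin had -0.43 over 13 genes, with Mau2, part of the cohesin loader, higher by 0.61. Mitotic entry genes had -1.92 over 10, centriole duplication -1.61 over 9, spindle and augmin -1.13 over 22, cytokinesis -0.79 over 11 and the remaining kinesins -0.53 over 9.

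Among the genes that were higher in BMP than in EGF/FGF, Lin52 and Rbl2 led. Lin52, a MuvB subunit, rose from 26.8 ± 2.22 to 66.9 ± 3.70 CPM (SD, n = 4), a log2 fold change of 1.32 ± 0.07 (SE) (adjusted p = 6.82e-12, edgeR). Rbl2 encodes p130, the pocket protein of the DREAM complex in resting cells, and rose from 59.8 ± 2.03 to 114 ± 5.09 CPM (0.93 ± 0.06 (SE)). Among 12 DREAM and MuvB genes they were the only 2 that rose, with 9 lower and a median of -0.70. Outside the anaphase-promoting complex and cohesin, the others that rose were Ckap5 (0.76), Numa1 (0.55), Kif3a (0.60), Kif3b (0.21), Kifap3 (0.55), Cep63 (0.30) and Vps4a (0.28). Kif3a, Kif3b and Kifap3 form the kinesin-2 motor of the primary cilium, Ckap5 is a microtubule polymerase and Numa1 organises spindle poles. From BMP to BMP/FGF, the genes that rose included Rhoa (0.36), the GTPase of the cleavage furrow, E2f5 (0.37), a repressor E2F, and Zwint (0.25), a kinetochore protein. Sept7, a septin of the cytokinetic ring, had the highest change (0.58), and Arhgef39 (-1.17) and Spdl1 (-1.11), the kinetochore adaptor spindly, the lowest.

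**Figure D5:**
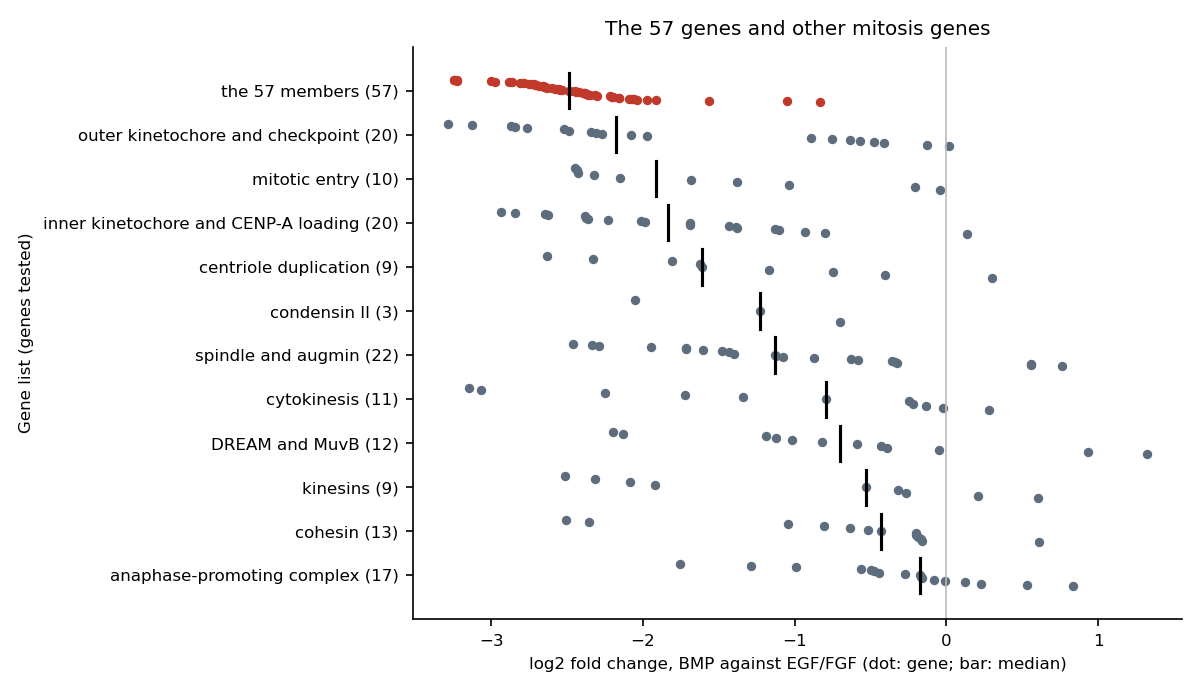
Log2 fold change of BMP against EGF/FGF for the 57 genes (top, red) and for 146 other mitosis genes by complex, where each dot is a gene and each bar a median. The 57 genes lie between -3.25 and -0.83, while the anaphase-promoting complex and cohesin have medians of -0.18 and -0.43 and Lin52 reaches 1.32.

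Per length, the order of levels among the 57 genes was as follows. In EGF/FGF the most abundant per kb were Top2a, Prc1, Ccna2, Ckap2 and Ccnb1 and the least Espl1, Mybl2, Mad2l1, Kif20b and Spc24, over a range from 7.97 to 165.7 CPM per kb. In BMP the range was 1.55 to 30.6, led by Top2a, Racgap1, Bub3, Prc1 and Ccna2, and in BMP/FGF 0.839 to 17.9. Bub3 (17.9 CPM per kb) and Top2a (17.8) led in BMP/FGF, followed by Smc4, Prc1 and Ckap2. Exons of a gene on the opposite strand overlap Ncapg (Lcorl), Ccna2 (Exosc9), Cdca8 (9930104L06Rik), Ube2c (Tnnc2), Kif20a (Cdc23), Kif4 (Pdzd11), Nusap1 (Oip5) and Prc1 (Rccd1), besides Cdc25b, Cdc20 and Kif18a, and Tex52 overlaps Foxm1 on the same strand. Other annotated genes also hold 25.3% of the 31-base stretches of Mybl2, 15.2% of those of Plk1 and 8.67% of those of Kif11, so these levels are uncertain where reads were shared.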

How the data were processed

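Bulk RNA-seq of 12 mouse NSC libraries was analysed. Per the submitters' processing notes, reads were trimmed with Trim Galore 0.5.0 and assigned to mm10 transcripts with kallisto 0.44.0, summed to genes with Tximport and normalised with DESeq2 1.27.32. The authors deposited estimated counts per gene, used here after rounding to whole numbers, and regularised log2 values (rlog), used for 1 alternative. Strandedness is not given in the sources used here. Library totals were 18069052 to 19451818, and replicates differed by more than counting error in each group, with a chi-square per degree of freedom over all genes from 2.14 (BL6 BMP/FGF) to 12.4 (BL6 BMP), so no libraries were counted as duplicates.

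Counts were filtered with filterByExpr (minimum count 10), scaled by TMM and fitted with edgeR 4.0.16 (limma 3.58.1, R 4.3.3) by quasi-likelihood on all 12 libraries, with condition and line as terms. Line differences are interactions in a fit of 6 groups. Benjamini-Hochberg adjustment covered 13312 genes. Scripts were tested on simulated data, where recovery of calls was required for condition effects but not for line differences. For line differences only the mean size of the change was checked. Deviations of same-numbered replicates had r = 0.31 between ANS4 BMP and ANS4 EGF/FGF, and r from -0.18 to 0.0073 for the other pairs of conditions. Numbers were not used as pairs in the main fit, and a replicate block was an alternative. Promoters were read from RefSeq (GRCm38.p6) and exons from GENCODE vM21 with Python 3.11.15. Alternatives were DESeq2 1.42.0, other scaling, filters, thresholds and designs, and leaving out each library. Limma-trend and crossed replicate numbers were added after seeing the data.

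The members, lists and tests were chosen with earlier results of these data known. Values in every library are given for Mki67, Top2a, Cdk1, Ccnb1, Plk1, Aurkb, Cenpa, Foxm1 and Bub3, for the 3 genes that changed most and the 3 that changed least in BMP, for the 3 most negative and 3 most positive in BMP/FGF against BMP, and for the 3 with the lowest p of the line difference. Of the other mitosis genes, those called opposite to the median of the 57 and the 2 lowest and 2 highest could be named.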

Additional observations from a re-analysis of the deposited data

Results flagged for a closer look

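Aurkb stood at 67.5 CPM in ANS4 EGF/FGF replicate 1, apart from the other 3 EGF/FGF libraries at 78.0 to 80.0 CPM. Chance flags about 5% of groups of 4 in this way.

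The change from EGF/FGF to BMP differed between the lines, by the interaction test in edgeR, for 8 of the genes given in every library. Of all tested genes, the same test called 5.39% higher and 3.63% lower in BL6. The BL6 minus ANS4 differences on the log2 scale were 0.55 for Mki67, 0.47 for Cenpa, 0.39 for Ckap2, 0.35 for Ncapd2, 0.70 for Cdc20, 0.83 for Ube2c, 0.37 for Racgap1 and 0.69 for Cenpe, so each fell less in BL6.

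The change from BMP to BMP/FGF differed between the lines for 13 of the genes given in every library. Of all tested genes, 6.86% were called lower and 6.67% higher in BL6. Mki67, Racgap1 and Cenpe met the rule of lowest p for this same difference, so their part of the count follows from the choice. The differences were -1.15 for Mki67, -0.60 for Top2a, -0.51 for Ccnb1, -0.70 for Plk1, -0.82 for Foxm1, -1.002 for Ccnb2, -0.66 for Hmmr, -0.62 for Ncapd2, -0.85 for Cdc20, -1.16 for Ube2c, -0.65 for Smc4, -0.77 for Racgap1 and -1.46 for Cenpe. The call was lost for Ccnb1 without ANS4 BMP/FGF replicate 2 (-0.42) or BL6 BMP/FGF replicate 2 (-0.44). It was lost for Ccnb2 without ANS4 BMP replicate 1 (-0.87), ANS4 BMP/FGF replicate 1 (-0.94) or BL6 BMP/FGF replicate 1 (-0.86). It was lost for Hmmr without ANS4 BMP replicate 2 (-0.57) or any 1 of the 4 BMP/FGF libraries (-0.67 to -0.62). Both sets of differences share the BMP libraries.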

How the results depend on the processing

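All 57 genes kept their direction and call against EGF/FGF in both BMP conditions under every alternative run other than the fold threshold of 1.5, which 55 passed. With that threshold, 0 of the 57 were called in BMP/FGF against BMP and 0 in either line difference. Of the 146 other mitosis genes tested, 56 were then lower in BMP than in EGF/FGF, against 6.95% of all genes. In BMP/FGF against BMP, 0 of them were lower, against 0.684% of all genes. In a fit of the ANS4 libraries alone, 39 of these 146 genes were lower in BMP/FGF than in BMP and 20 were higher. In the fit of 6 groups, ANS4 had 34 lower and 16 higher, against 16.6% and 15.2% of all genes. The line difference in BMP against EGF/FGF gave 4 genes at an FDR under 0.01, 11 without a filter, 8 in a fit of the 8 libraries compared and 5 to 20 with each library left out. The line difference in BMP/FGF against BMP gave 23 at an FDR under 0.01 and 25 to 42 with each library left out. For BMP/FGF against BMP, 4 changes took the opposite sign: Smc4 (-0.052) and Ckap2 (-0.022) in BL6 alone, and Cenpe (0.13) and Kif20b (0.27) in ANS4 alone. The cause was not tested. With a replicate block, 52 of the 57 genes were lower in BMP/FGF than in BMP, as without it, and 52 with the ANS4 BMP/FGF numbers crossed. Line differences with the replicate block numbered 14 and 43. The lowest count of the 57 genes in any library was 31, and each line difference rests on 2 libraries per line and condition. The effect of depth was not tested.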
